A study of Mus musculus with 6 samples.

Results

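The matrix metalloproteinases (MMPs) and tissue inhibitors of metalloproteinases (TIMPs) described here are 10 genes, 7 proteases (Mmp2, Mmp3, Mmp9, Mmp11, Mmp13, Mmp14 and Mmp23) and 3 inhibitors (Timp1, Timp2 and Timp3), out of 20832 genes that could be named on the array. Their probes were found through the RefSeq accession of each spot, which gave 12 probes, as Mmp11 and Timp2 have 2 probes each. RNA came from female Trp53-/- mice, which lack the p53 tumour suppressor in both diet groups, so no mouse with intact Trp53 enters any comparison. The high-fat diet (HFD) group and the control diet (CD) group held 3 mice each. Mice were assigned to a diet at random, ate it from 3 weeks of age for 5 weeks, and were 8 weeks old at collection. One single-colour (Cy3) Agilent array was run per mouse.

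MMPs are zinc-dependent proteases that cut collagens, laminins, proteoglycans and other proteins outside the cell, and they are made as inactive proenzymes that must be cleaved or unfolded to work. TIMPs bind the active site of MMPs and block it. In the pubertal mouse mammary gland both families are known from stroma and epithelium: Mmp2 and Mmp14 take part in the advance of the terminal end buds, the growing tips of the ducts, and Mmp3 promotes side branching.

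The labels give mammary glands as the source but speak of mammary epithelial cells when describing each sample, and do not settle whether the RNA was of the gland or of its epithelium. Levels are log2 of the processed signal over the 75th percentile of its array, so 0 is the level of that percentile and a step of 1 is a doubling. On all 6 arrays 8 of 8 fibroblast, 7 of 8 luminal, 7 of 7 basal and 4 of 6 adipocyte markers were well above background. The adipocyte markers other than Fabp4 lay between -7.33 and -4.67, near the lowest signal well above background (-7.87 to -6.83 over the arrays). Well above background is the scanner's flag for a spot brighter than its surroundings. Between 27249 and 29462 probes per array carried it, and 0 were saturated. On the first principal component (47.4% of the variance) HFD replicates 1 and 2 scored -62.2 and -54.7, HFD replicate 3 scored 7.65, and CD replicates 1 to 3 scored 0.40, 53.7 and 55.1, so HFD replicate 3 and CD replicate 1 lay between the other arrays. The arrays were on 3 slides. One slide held HFD replicates 2 and 3 with CD replicate 1, and the value within that slide, the mean of its 2 HFD arrays minus CD replicate 1, is given beside each pooled difference. Of these arrays, HFD replicate 1 was by itself on another slide, and CD replicates 2 and 3 shared the remaining slide. Outside the shared slide, a difference between diets and a difference between slides cannot be told apart. The number of arrays limits the precision.

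All 12 probes were well above background on all 6 arrays, and all were tested. Mean levels were lower for 11 and higher for 1 on the HFD arrays, and Timp3 was the one that was higher. Among all probes tested 48.8% were lower. None of the 12 passed an adjusted p of 0.05 in limma, a linear model with a pooled spread, after Benjamini-Hochberg adjustment over the 28689 probes tested. Of all those probes 0.0174% passed as lower and 0 passed as higher. At an unadjusted p under 0.05, 3 of the 12 were lower (Mmp2, Mmp3 and Mmp13), where 6.99% of all probes were, and 1 was higher (Timp3), where 6.77% were. In 4 probes every HFD array lay below every CD array (Mmp2, Mmp3, Mmp13 and the brighter Timp2 probe), as in 8.22% of all probes, and in 0 was every HFD array above every CD array. Among all probes 17.5% had no overlap in either direction. The median difference, HFD minus CD, was -0.54 over the 12 probes, -0.82 over the 8 MMP probes and -0.36 over the 4 TIMP probes, beside 0.0089 over all probes tested. Within the shared slide 9 of the 12 were lower and the median was -0.15, beside 12548 of the 28689 and a median of 0.034 over all probes tested. In 9 of the 12 HFD replicate 3 lay above both other HFD arrays, as in 9888 of the 28689 probes tested.

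**Figure D1:**
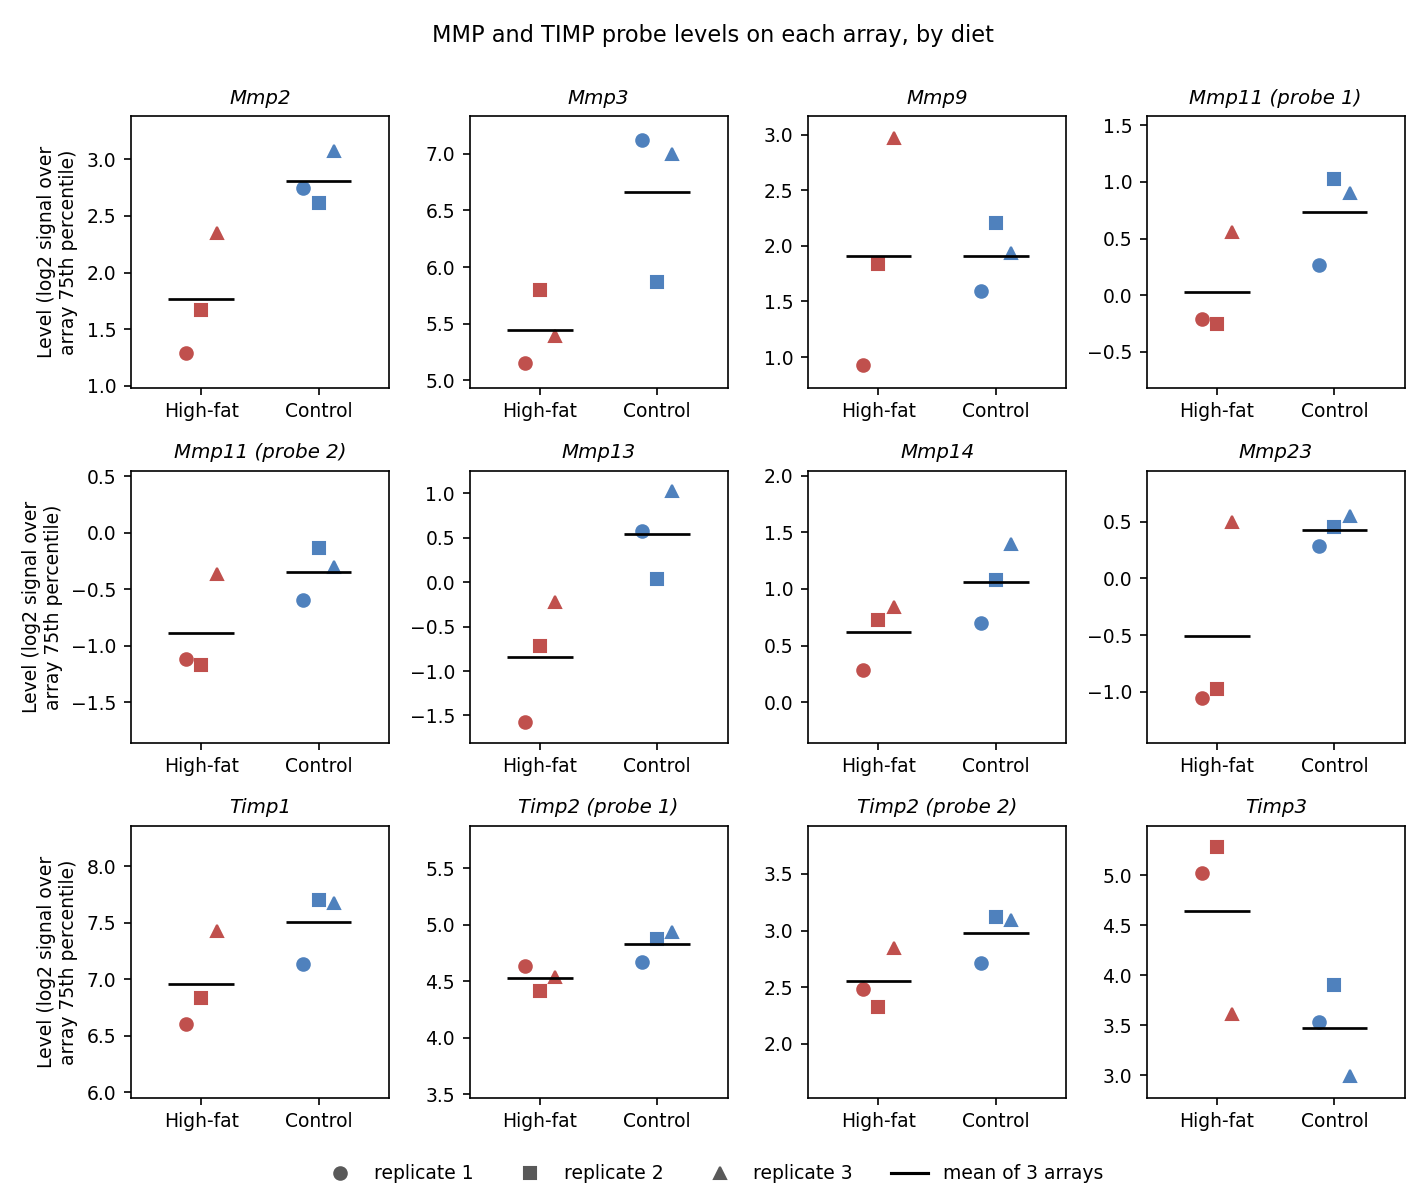
Level of each MMP and TIMP probe (y axis, log2 signal over the array's 75th percentile) on the 3 high-fat arrays (left, red) and the 3 control arrays (right, blue); shapes mark replicate numbers and black bars the mean of 3 arrays. Each panel has its own y range. The diets do not overlap for Mmp2, Mmp3, Mmp13 and the first Timp2 probe, and Timp3 is high on high-fat replicates 1 and 2.

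The gelatinases Mmp2 and Mmp9 had different estimates, but their 95% intervals overlapped and a contrast between them was not tested. Mmp2 (NM_008610), gelatinase A, which digests denatured collagen and basement membrane collagen, had levels of 1.29, 1.67 and 2.35 on HFD replicates 1 to 3, against 2.75, 2.61 and 3.08 on CD replicates 1 to 3. Every HFD array was below every CD array, with HFD replicate 3 nearest to the control values. The means were 1.77 ± 0.54 on HFD and 2.81 ± 0.24 on CD arrays (SD, n = 3 each). The difference was -1.04 (SE 0.29, 95% interval from -1.74 to -0.35), a 2.06-fold lower signal, with a limma adjusted p of 0.280, and within the shared slide it was -0.74. In RNA from mixed cells, fewer cells that make a transcript and less of it per cell cannot be told apart.

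Mmp9 (NM_013599), gelatinase B, an enzyme abundant in neutrophils and macrophages, had levels of 0.93, 1.84 and 2.97 on HFD replicates 1 to 3, against 1.597, 2.21 and 1.93 on CD replicates 1 to 3. HFD replicate 1 was the lowest and HFD replicate 3 the highest of the 6 arrays, with all CD arrays between them. The means were 1.91 ± 1.02 on HFD and 1.91 ± 0.31 on CD arrays (SD, n = 3 each), a difference of -0.0021 (SE 0.50, limma adjusted p = 0.999). The interval from -1.21 to 1.203 leaves room for a doubling or a halving. This probe is printed on 10 spots per array, and the SD of those spots was 0.02 to 0.04 on each array, far under the spread between arrays. With 1 array per mouse, differences between mice and between arrays cannot be told apart. Leaving out HFD replicate 1 put the difference at 0.49 and leaving out HFD replicate 3 at -0.53, so its sign rested on single arrays. Within the shared slide it was 0.81.

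Mmp3 and Mmp13 both lie in the MMP gene cluster of chromosome 9, and both had lower levels on the HFD arrays. Mmp3 (NM_010809), stromelysin 1, which cuts many matrix proteins and activates other proMMPs, had levels of 5.15, 5.80 and 5.39 on HFD replicates 1 to 3, against 7.12, 5.87 and 7.002 on CD replicates 1 to 3. CD replicate 2 stood just above HFD replicate 2, and the other CD arrays were more than 1 log2 unit higher. The difference was -1.22 (SE 0.37, 95% interval from -2.10 to -0.33, limma adjusted p = 0.304), a 2.32-fold lower signal, and within the shared slide it was -1.52.

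Mmp13 (NM_008607), collagenase 3, which cuts intact fibrillar collagen, had levels of -1.58, -0.72 and -0.23 on HFD replicates 1 to 3, against 0.57, 0.03 and 1.02 on CD replicates 1 to 3. Here too every HFD array was below every CD array. Its difference was the largest of the 10 genes, -1.39 (SE 0.40, 95% interval from -2.35 to -0.42, limma adjusted p = 0.294), a 2.61-fold lower signal. Within the shared slide it was -1.05.

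Mmp13 and Mmp3 share a sequence close to their starts. In the 250 bases before the start of each gene, the letters TGANTCA, which match binding sites of AP-1 (dimers of FOS and JUN proteins), were found in 2 of the 8 member genes with a RefSeq promoter, Mmp13 and Mmp3, and in 6.75% of all 32851 promoters in the table. Both strands were searched, and this motif reads the same on both. The letters AACCACA, which match sites of RUNX factors and overlap no TGANTCA here, were found in Mmp13 alone of those 8 genes, and in 4.396% of all promoters. A match describes the sequence and does not show that a factor binds. The 120 bases before the start are printed for Mmp13 and Mmp3, and for the 3 other cluster genes with the most negative differences among those with a match within that window, 5′ to 3′ with matches in capitals (RefSeq, GRCm38.p6).
Mmp13, chr9:7272394-7272513 (+): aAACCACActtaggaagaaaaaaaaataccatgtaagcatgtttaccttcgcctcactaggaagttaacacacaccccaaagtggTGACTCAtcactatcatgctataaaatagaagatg
Mmp1b, chr9:7388027-7388146 (-): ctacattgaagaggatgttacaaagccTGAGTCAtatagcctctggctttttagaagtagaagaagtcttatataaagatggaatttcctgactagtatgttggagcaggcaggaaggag
Mmp3, chr9:7445702-7445821 (+): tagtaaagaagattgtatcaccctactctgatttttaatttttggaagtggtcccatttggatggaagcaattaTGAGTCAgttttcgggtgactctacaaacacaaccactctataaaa
Mmp1a, chr9:7464021-7464140 (+): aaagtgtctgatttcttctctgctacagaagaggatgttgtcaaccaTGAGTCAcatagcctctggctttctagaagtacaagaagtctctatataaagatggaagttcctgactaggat
Mmp10, chr9:7502222-7502341 (+): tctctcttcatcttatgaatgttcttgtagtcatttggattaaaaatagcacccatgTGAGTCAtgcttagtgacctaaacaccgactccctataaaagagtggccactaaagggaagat

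The cluster holds 10 MMP genes in a row, with no other protein-coding gene between them in the RefSeq table. Of these, 8 were tested, and 7 had lower and 1 higher mean levels on the HFD arrays, with 0 passing the adjusted p of 0.05. Mmp1a and Mmp1b, closely related mouse relatives of the human interstitial collagenase, differed by -1.77 (SE 0.43, limma adjusted p = 0.251) and -1.66 (SE 0.52, limma adjusted p = 0.315). Whether their probes bind each other's transcript was not tested. Mmp1a was dim, at -6.24, -5.78 and -5.02 on HFD replicates 1 to 3, against -3.31, -4.65 and -3.79 on CD replicates 1 to 3, and its diets did not overlap. Mmp10, stromelysin 2, had levels of -0.52, -0.50 and 2.00 on HFD replicates 1 to 3, against 2.58, 1.24 and 1.95 on CD replicates 1 to 3. HFD replicate 3 was thus as high for Mmp10 as the control arrays, unlike for Mmp3, Mmp13 and Mmp1a. For Mmp1b HFD replicate 3 (-2.52) was just above CD replicate 2 (-2.57), so its diets overlapped. Mmp8, the neutrophil collagenase, differed by -0.49 (SE 0.43), and Mmp7, matrilysin, by -1.25 (SE 0.61) with 1 of 3 HFD and 2 of 3 CD arrays well above background.

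Mmp12, the macrophage elastase, lies next to Mmp13 and was the exception. Its levels were -4.79, -4.01 and -4.35 on HFD replicates 1 to 3, against -5.05, -5.49 and -4.92 on CD replicates 1 to 3. Every HFD array was above every CD array, as in 9.25% of all probes, and the difference was 0.77 (SE 0.25, limma adjusted p = 0.318). One of its 2 annotated starts also has a TGANTCA match, as do 8 of the 10 cluster genes, so the match was not limited to genes with lower values. Within the shared slide the differences of the 8 genes had the same signs as the pooled ones, from -2.55 for Mmp7 to 0.86 for Mmp12. On that slide Mmp7 was at -8.23 and -8.95 on HFD replicates 2 and 3. Both values lay under the lowest signal well above background on those arrays (-6.83 and -7.38), so its difference rests on undetected signal.

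**Figure D2:**
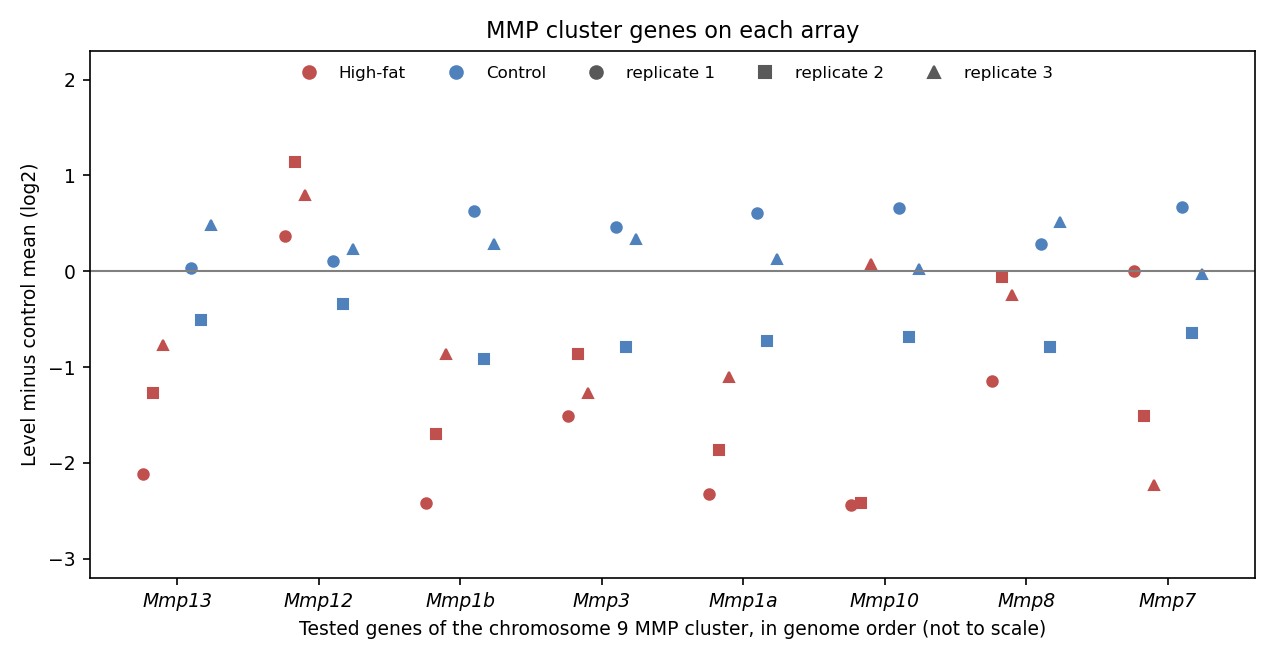
Levels of the 8 tested MMP genes of the chromosome 9 cluster (x axis, in genome order) on each array, as log2 level minus the mean of the 3 control arrays (y axis); red marks high-fat and blue control arrays, and shapes mark replicates. Mmp12 alone has all high-fat points above its control points, and Mmp10 on high-fat replicate 3 lies at the control level.

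Mmp14 (NM_008608), the membrane-anchored MMP that activates proMMP2 at the cell surface, had levels of 0.29, 0.73 and 0.84 on HFD replicates 1 to 3, against 0.70, 1.08 and 1.40 on CD replicates 1 to 3. CD replicate 1 lay within the HFD range. The difference of -0.44 (SE 0.23, 95% interval from -1.002 to 0.12, limma adjusted p = 0.421) was 0.086 within the shared slide, with the opposite sign.

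Mmp11, stromelysin 3, a fibroblast enzyme activated by furin inside the cell, was read by 2 probes (both NM_008606) that had the same order of diets. The brighter gave -0.21, -0.26 and 0.55 on HFD replicates 1 to 3, against 0.27, 1.02 and 0.90 on CD replicates 1 to 3. The dimmer gave -1.12, -1.17 and -0.36 on HFD replicates 1 to 3, against -0.60, -0.14 and -0.30 on CD replicates 1 to 3. On both probes HFD replicate 3 was above CD replicate 1, so the diets overlapped. The differences were -0.70 (SE 0.30) and -0.54 (SE 0.25), with limma adjusted p-values of 0.365 and 0.388, and they shrank to -0.12 and -0.17 within the shared slide.

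Mmp23 (NM_011985), an MMP held in the membrane by its N-terminal end, split the HFD arrays most clearly. It had levels of -1.06, -0.97 and 0.50 on HFD replicates 1 to 3, against 0.28, 0.46 and 0.55 on CD replicates 1 to 3. HFD replicates 1 and 2 were more than 1 log2 unit below every CD array, while HFD replicate 3 lay among them. The difference was -0.94 (SE 0.42, limma adjusted p = 0.371) and -0.52 within the shared slide. Without HFD replicate 3 it was -1.45 and passed (limma adjusted p = 0.049), the one probe of the 12 whose call changed when a single array was left out.

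**Figure D3:**
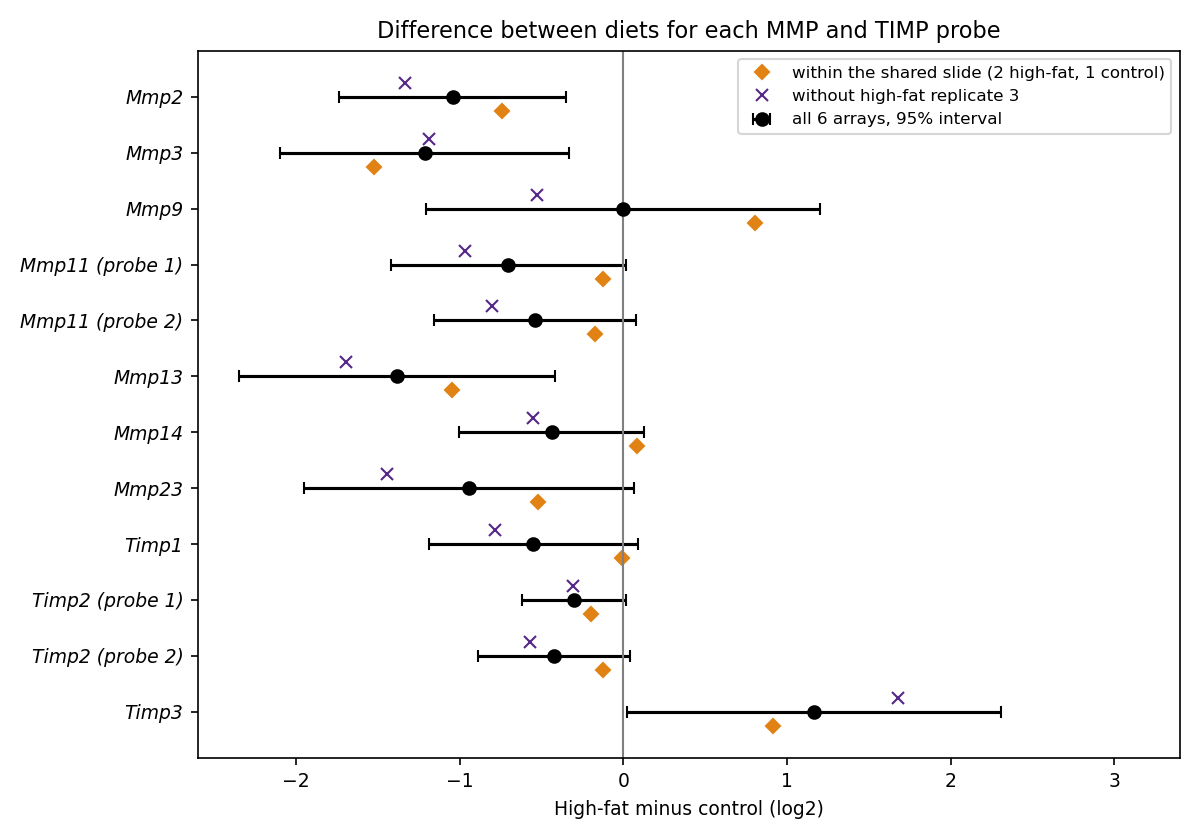
Difference between diets for each probe (x axis, high-fat minus control, log2): black points with bars give the fit on all 6 arrays with its 95% interval, orange diamonds the value within the shared slide, and purple crosses the value without high-fat replicate 3. Mmp2, Mmp3 and Mmp13 stay at or below -0.74 in all 3 readings, Mmp9 changes sign, and Timp3 is the one gene above 0.9 throughout.

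The inhibitors did not share a direction. Timp1 (NM_001044384), a secreted inhibitor of most soluble MMPs, was bright, with levels of 6.61, 6.83 and 7.43 on HFD replicates 1 to 3, against 7.14, 7.70 and 7.67 on CD replicates 1 to 3. HFD replicate 3 exceeded CD replicate 1. The difference was -0.55 (SE 0.26, 95% interval from -1.19 to 0.086, limma adjusted p = 0.390), and it was -0.0088 within the shared slide.

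Timp2 (both probes NM_011594), which inhibits MMPs and also serves as the bridge between Mmp14 and proMMP2, had the smallest difference apart from Mmp9. Its brighter probe gave 4.63, 4.41 and 4.54 on HFD replicates 1 to 3, against 4.67, 4.87 and 4.93 on CD replicates 1 to 3. The diets did not overlap on that probe, though HFD replicate 1 and CD replicate 1 were only just apart. The difference was -0.30 (SE 0.13, limma adjusted p = 0.370), a 1.23-fold lower signal. On the dimmer probe, where the diets overlapped, it was -0.42 (SE 0.19, limma adjusted p = 0.375). Within the shared slide the 2 probes gave -0.20 and -0.12.

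Timp3 (NM_011595), the inhibitor that is bound to the matrix and also blocks several ADAM and ADAMTS proteases, had levels of 5.02, 5.28 and 3.61 on HFD replicates 1 to 3, against 3.53, 3.90 and 2.99 on CD replicates 1 to 3. HFD replicates 1 and 2 were more than 1 log2 unit above every CD array, and HFD replicate 3 lay among the CD arrays. The means were 4.64 ± 0.90 on HFD and 3.47 ± 0.46 on CD arrays (SD, n = 3 each). The difference was 1.16 (SE 0.47, 95% interval from 0.02 to 2.31, limma adjusted p = 0.362), a 2.24-fold higher signal. It was 0.92 within the shared slide and 1.68 without HFD replicate 3, where the limma adjusted p was 0.089.

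Further genes of the pathway were taken as 5 lists, and 0 of their 60 tested genes passed the adjusted p of 0.05, while 7 had an unadjusted p under 0.05, as did 13.8% of all probes tested, a share no smaller than that of these genes. Each gene was read by its brightest tested probe. Among 7 other inhibitors, 1 was lower and 6 were higher, with a median of 0.16. Reck, a membrane-anchored inhibitor of MMPs, was at -4.08, -3.53 and -3.19 on HFD replicates 1 to 3, against -2.80, -2.53 and -1.98 on CD replicates 1 to 3. Every HFD array was below every CD array (-1.16, SE 0.30, limma adjusted p = 0.263). The matrix proteoglycans Spock2 and Spock1 differed by 0.60 (SE 0.28) and 0.16 (SE 0.19), with overlap between diets. Timp4, the remaining TIMP, was dim and differed by 0.08 (SE 0.17).

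Of 10 further MMPs tested, most of them in the chromosome 9 cluster, 7 were lower and 3 higher (median -0.54). Outside the cluster Mmp15, Mmp17, Mmp19 and Mmp24 differed by 0.75, -0.03, -0.60 and 0.23, with limma adjusted p-values from 0.481 to 0.969. Mmp16, Mmp20, Mmp21, Mmp25 and Mmp28 were not well above background on enough arrays to be tested. The 12 activators and inducers had a median of -0.07, with differences from -0.33 to 0.53. Pcsk6, a proprotein convertase like furin, differed by 0.53 (SE 0.29). Furin and the protease Plat differed by -0.02 and -0.30. The AP-1 genes Fos, Fosl1, Jun and Junb differed by -0.05, -0.33, -0.21 and 0.31, and Jun was the one with no overlap between diets (limma adjusted p = 0.483).

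The 15 ADAM and ADAMTS proteases had a median of -0.17, with 11 lower. Adam9 and Adam17, which shed cell-surface proteins, differed by -0.59 (SE 0.21) and -0.80 (SE 0.29) with no overlap between diets. The aggrecanase Adamts5 differed by 1.26 (SE 0.54) and Adamts1 by 0.65 (SE 0.29). The 16 matrix substrates had a median of -0.23 and 12 were lower. The collagen genes Col3a1 and Col1a2 differed by -1.05 (SE 0.46) and -0.87 (SE 0.47). The proteoglycan Vcan and the elastic fibre gene Eln differed by -0.72 (SE 0.35) and -0.39 (SE 0.19). Spp1, osteopontin, which MMPs cut, stood at 1.72, 1.65 and 5.79 on HFD replicates 1 to 3, against 5.19, 5.37 and 5.25 on CD replicates 1 to 3. HFD replicate 3 was again at the control level, and without it Spp1 passed (-3.58, limma adjusted p = 0.008), where with all arrays it did not (-2.21, SE 1.09, limma adjusted p = 0.396).

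Within the shared slide the list medians were -0.16 for the other MMPs, -0.04 for the other inhibitors, 0.26 for the activators and inducers, 0.17 for the ADAM and ADAMTS proteases and 0.26 for the matrix substrates. The last 3 and the other inhibitors thus had the opposite sign to their pooled medians.

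The array pattern of several members resembled that of the mean of a list of cell type markers. Of 8 fibroblast markers 6 were lower on the HFD arrays (median -0.96, 0 passing), and their mean level was 3.71, 3.90 and 4.97 on HFD replicates 1 to 3, against 4.61, 5.30 and 5.45 on CD replicates 1 to 3. Their summed signal, in units of the 75th percentile, ran from 188 to 478 on HFD and from 399.6 to 682 on CD arrays. Like Mmp11, Mmp23 and Timp1, the mean of the list was low on HFD replicates 1 and 2 and had HFD replicate 3 above CD replicate 1. The single markers did not all share this order. For Pdgfra, Dcn and Lum every HFD array was below every CD array (-1.66, -1.62 and -1.80). Col1a1, Col1a2 and Col3a1 differed by -0.63, -0.87 and -1.05, and Thy1 and Fap by 0.13 and 0.09, all with overlap between diets. Timp3, unlike the fibroblast mean, was high on HFD replicates 1 and 2, and its HFD replicate 3 was also above CD replicate 1 (3.61 and 3.53). The mean of the luminal markers was high on HFD replicates 1 and 2 as well (1.75 and 1.79). Its HFD replicate 3 (1.02) was below CD replicate 1 (1.18). The fibroblast list's part in these results was not tested.

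The 8 luminal markers were all higher on HFD arrays (median 0.70), with means of 1.75, 1.79 and 1.02 on HFD replicates 1 to 3, against 1.18, 0.55 and 0.71 on CD replicates 1 to 3. Their summed signal ran from 236 to 455 on HFD and from 194 to 294 on CD arrays. Krt18 made up most of these sums and differed by 0.51, with overlap between diets. The 7 basal and myoepithelial markers were all higher as well (median 1.205), and their sums of 209.9 to 242 on HFD arrays did not overlap the 90.6 to 143 on CD arrays. For neutrophils, 4 of 7 markers were tested and all 4 were lower on HFD arrays (median -0.87). Ngp was not clearly above background, and the sums were 28.9 to 32.1 on HFD and 33.5 to 36.8 on CD arrays. Csf3r made up most of these sums and differed by -0.08, with overlap between diets. The list means overlapped, at -0.31 to 0.98 on HFD and 0.25 to 1.61 on CD arrays. Among the tested markers Camp alone had no overlap between diets (-1.13). Macrophage markers (6 of 7 tested, 3 lower) summed to 10.3 to 15.8 on HFD and 13.1 to 14.3 on CD arrays. Cd14 and Itgam together made up most of these sums and differed by 0.31 and -0.43, with overlap between diets.

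Endothelial markers (5 tested, 2 lower) summed to 9.35 to 13.1 on HFD and 9.85 to 13.7 on CD arrays, and adipocyte markers (6 tested, 2 lower) to 1.41 to 5.95 on HFD and 1.79 to 3.37 on CD arrays. Kdr made up most of the endothelial sums and Fabp4 most of the adipocyte sums. They differed by -0.07 and 0.12, with overlap between diets. Skeletal muscle markers (5 of 6 tested, 4 lower) summed to 2.77 to 4.46 on HFD and 5.83 to 9.39 on CD arrays. In none of the 8 lists did a marker pass the adjusted p of 0.05, and the part of these lists in the MMP and TIMP values was not tested.

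**Figure D4:**
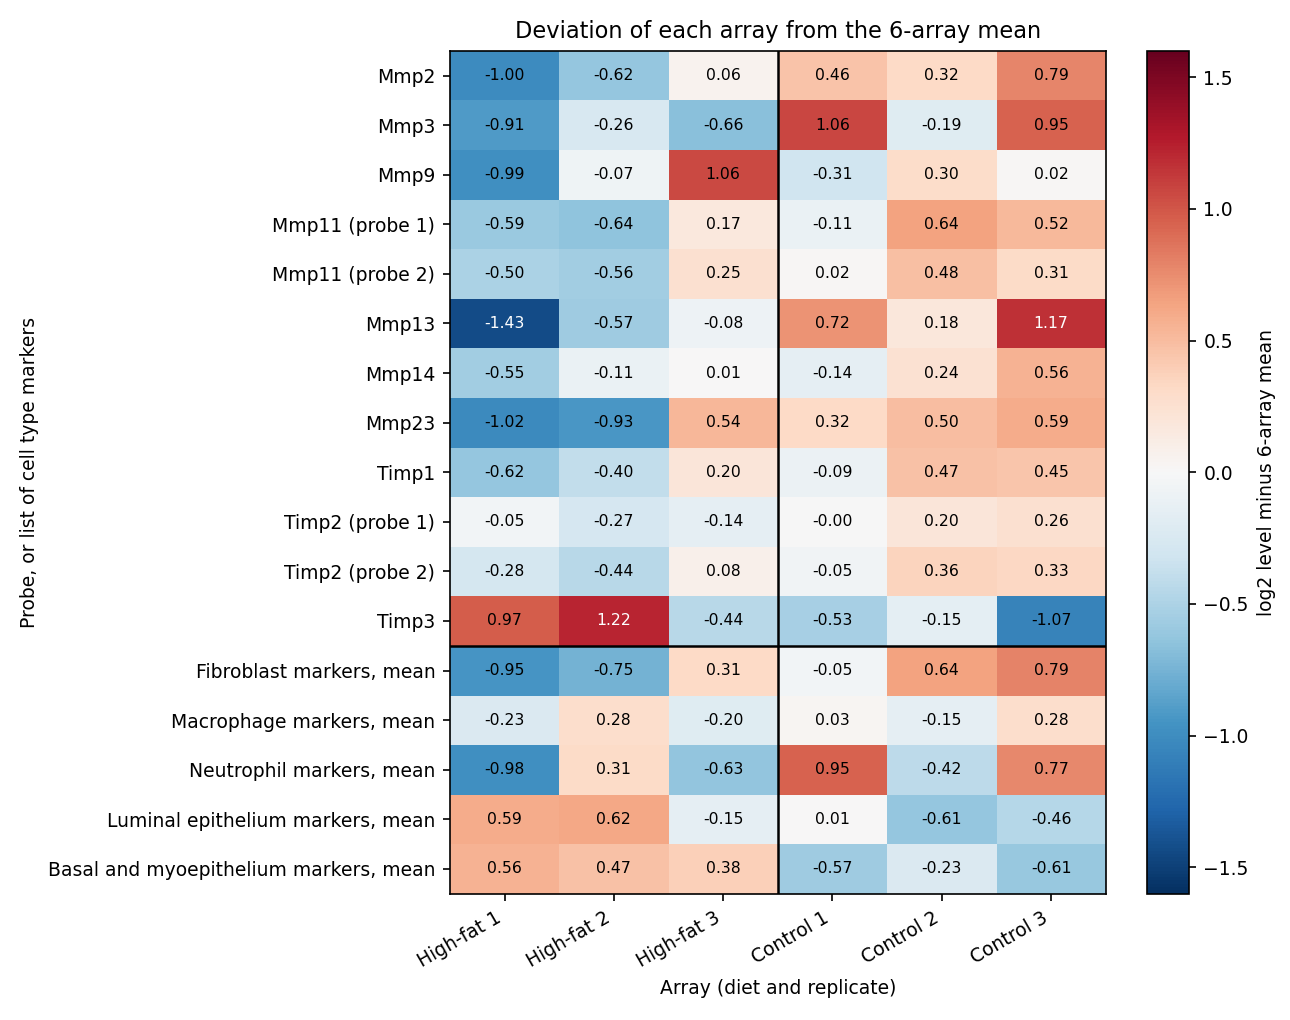
Deviation of each array (columns, 3 high-fat then 3 control) from the mean of the 6 arrays, in log2 units, for the 12 MMP and TIMP probes (upper rows) and for the mean of 5 lists of cell type markers (lower rows); red is above and blue below the mean. High-fat replicates 1 and 2 are low for Mmp23 (-1.02 and -0.93) and for fibroblast markers (-0.95 and -0.75), while Timp3 is high there (0.97 and 1.22).

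Over the 6 arrays and 16381 other named genes, the genes with the levels most like those of Mmp2 were Cst3, Armcx1 and C1s1. Those most like Mmp3 were Mrc1, Gripap1 and Rapgef2, those most like Timp1 were Ripk3, Lamb2 and Pbxip1, and those most like Timp3 were Fbxo46, Lsr and Map2k4. Likeness was Pearson's r, which for these 12 genes lay between 0.993 and 0.9995. It describes 6 points that share a scaling and the order of arrays on the first component, and says nothing of shared function or control.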

How the data were processed

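RNA of 6 mice was measured on 6 single-colour arrays and grouped by the diet in the labels. Per the file headers and the submitters' processing notes, the software was version 11.0.1.1 of Agilent Feature Extraction. Scanner output as deposited is intensity on a linear scale: a background-subtracted, detrended processed signal, and median spot and background signals, with flags. The authors' deposited table of 30608 probes holds intensity close to the processed signal over each array's 75th percentile (99.9% of values in 1 ratio within 1%). Its medians were 0.134, 0.134 and 0.137 for HFD and 0.134, 0.140 and 0.134 for CD replicates 1 to 3.

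Control and outlier-flagged spots were dropped, spots of a probe averaged, and log2 signal was taken relative to the 75th percentile over 39318 of 39429 probes. The 28689 probes that exceeded background clearly on 3 or more of 6 arrays were tested by diet with limma 3.58.1 in R 4.3.3 (lmFit, eBayes, two-sided, no covariates, Benjamini-Hochberg over all probes). RefSeq accessions named 27427 probes. No test compares the levels of different probes. The sums over marker lists add such levels, so bright probes weigh most in them, and probes of the same gene are ranked by brightness. The method was tested on simulated data with independent noise for each probe and no difference between slides. That setting cannot show how the method performs where diet and slide are partly tied, as here.

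Members and lists were chosen with earlier results of these data known. All members are described; each pathway list names genes by the smallest p, apart from 2 that are not reported here, and others by function, after their values were seen. The lists were other MMPs, other inhibitors, activators and inducers, ADAM and ADAMTS proteases, matrix substrates, and 8 lists of cell type markers. Other settings covered scaling, background, filter, floor, probe rule, variance, array weights, slide, replicate block, the deposited table, threshold and leaving out each array. Replicate numbers were not taken as pairs in the main fit. Deviations of same-numbered arrays correlated at 0.34, -0.14 and 0.25, and those of differently numbered arrays at -0.38 to 0.24. With so few arrays per diet these correlations cannot decide whether the samples were paired. Probe sequences and proteins were not used here.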

Additional observations from a re-analysis of the deposited data

How the results depend on the processing

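No member probe passed an adjusted p of 0.05 in the main limma fit, nor in any other setting run except array weights and leaving out HFD replicate 3. The array weights of limma were estimated from the same data. They were lowest for HFD replicate 3 (0.42) and CD replicate 1 (0.34) and highest for CD replicate 3 (4.11). With these weights 6847 of the 28689 probes tested passed, among them 11 of the 12 member probes (all but Mmp9) and 18 pathway genes. Over all probes, 5 passed as reported, 0 with normexp and the 75th percentile, 8 with normexp and quantile normalization, 0 without the filter, 8 with the filter at all 6 arrays, 0 with slide as a fixed block, 0 with the replicate block (5181 at an unadjusted p under 0.05) and 21 at an adjusted p under 0.10. Leaving out single arrays gave 0 to 122 probes, 0 to 1 member probes and 0 to 1 pathway genes, with the highest counts without HFD replicate 3. The replicate block changed no member's call. Mmp14 had the opposite sign with slide as a fixed block (0.086). Mmp9 had the opposite sign with median scaling (0.021), quantile normalization (0.021), normexp and quantile normalization (0.032) and slide as a fixed block (0.81), and ran from -0.53 to 0.49 when single arrays were left out. The other 10 probes kept their sign in every setting run. The median of all probes moved to 0.31 under normexp with the 75th percentile, where 11 of 12 member probes were lower. The deposited table held 9 of the 12 member probes. The cause of these changes was not tested.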
